A study of Mus musculus with 2 samples.

Results

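The 44 genes described here are needed for mitosis or for the G2 phase before it, and all 44 were among the 27998 genes counted in both single-cell libraries. They were chosen by function (cyclins, kinases, spindle and chromosome proteins), with no threshold on a measured value. Both libraries held immune cells from B16Ova tumors, grown from a mouse melanoma line that makes ovalbumin, in female mice. The KO library came from Tcf7 cKO mice (E8i-cre+, Tcf7 FL/FL). The WT library came from mice without the recombinase (E8i-cre-, Tcf7 FL/FL), so both groups carried the floxed Tcf7 alleles and only the KO mice carried the cre. The E8i enhancer drives the recombinase in mature CD8 T cells, and TCF1, the product of Tcf7, is a transcription factor that keeps T cells in a naive or stem-like state. Each mouse received 250000 tumor cells under the skin of the flank, and tumors were taken on day 13. Cells of 3 tumors per group were sorted as CD8 T cells, CD4 T cells, CD11c+ MHCII+ dendritic cells and other CD45+ cells, with 2000 cells of each kind per tumor, then mixed equally, and 7000 cells were loaded per channel. With 1 library per group, no difference between KO and WT could be tested against a spread between animals, and no p-value is given. Intervals of levels, ratios and shares are exact 95% intervals, that of a difference between shares joins the bounds of both shares, and all cover counting error only.

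A cell that divides copies its DNA in S phase and then builds up cyclin B and the kinase CDK1, which together start mitosis. The spindle then forms, kinetochores attach chromosomes to it, checkpoint kinases hold the cell until every chromosome is attached, and the anaphase-promoting complex marks cyclins and other proteins for destruction so that the chromosomes part. Transcripts of these genes build up late in the cycle and are low in resting cells, which is why they mark dividing lymphocytes and dendritic cell precursors in tissue.

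Many such genes are known to be controlled through a cell cycle homology region (CHR) and CCAAT boxes near the start site. Both were looked for in the 300 bases from 250 before to 50 after the start of each gene, in the RefSeq promoters of GRCm38.p6, for the 37 of 44 genes that had an entry. A CHR (TTTGAA or TTCGAA, either strand) was present in 28 of 37 (75.7%), against 19.4% of all 27025 promoters. A CCAAT box (CCAAT, either strand) was present in 29 of 37 (78.4%), against 37.9% of all promoters, and both stood together in 24 of 37 (64.9%), against 7.70%. The 4 of 37 with neither included Birc5 and Tacc3, whose transcripts are described beside those of Cdk1 and Mki67. The 200 bases before the start are shown for the genes on which most of the description turns, 5′ to 3′ on the strand of the gene, with CHR and CCAAT matches on either strand in capitals. Cdk1 is at chr10:69352913-69353112 (minus strand), Ube2c at chr2:164769729-164769928 (plus), Mki67 at chr7:135716380-135716579 (minus), Top2a at chr11:99024190-99024389 (minus) and Birc5 at chr11:117849037-117849236 (plus). A match describes the letters only and says nothing of binding.
Cdk1: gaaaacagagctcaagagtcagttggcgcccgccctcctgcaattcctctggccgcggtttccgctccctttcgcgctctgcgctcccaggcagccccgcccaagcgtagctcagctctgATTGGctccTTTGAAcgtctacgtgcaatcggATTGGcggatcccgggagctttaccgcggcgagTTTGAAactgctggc
Ube2c: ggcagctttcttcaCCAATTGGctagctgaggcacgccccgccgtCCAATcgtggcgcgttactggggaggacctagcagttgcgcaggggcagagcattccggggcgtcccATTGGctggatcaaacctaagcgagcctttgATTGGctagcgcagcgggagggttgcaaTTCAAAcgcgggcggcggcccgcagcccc
Mki67: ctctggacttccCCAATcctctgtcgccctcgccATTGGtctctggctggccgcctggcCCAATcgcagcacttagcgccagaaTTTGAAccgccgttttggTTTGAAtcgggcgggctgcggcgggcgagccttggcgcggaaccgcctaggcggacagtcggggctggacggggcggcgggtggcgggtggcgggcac
Top2a: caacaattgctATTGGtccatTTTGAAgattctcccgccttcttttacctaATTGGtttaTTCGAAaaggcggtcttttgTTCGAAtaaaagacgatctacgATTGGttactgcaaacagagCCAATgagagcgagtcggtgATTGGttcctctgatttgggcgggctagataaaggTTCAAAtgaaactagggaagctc
Birc5: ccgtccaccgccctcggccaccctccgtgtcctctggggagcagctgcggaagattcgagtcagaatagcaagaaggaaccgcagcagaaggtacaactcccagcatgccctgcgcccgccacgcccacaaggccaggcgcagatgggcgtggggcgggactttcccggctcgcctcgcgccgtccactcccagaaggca

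After filtering, 1083 KO and 983 WT cells remained, with a median of 8117 and 6168 UMIs per cell. A UMI is 1 counted RNA molecule. Cells were clustered without genes of mitosis and S phase, while some other genes of the cycle, such as Ccnd2 and Cdkn1a, were not kept out. The clusters were named from marker genes, and T cells were then divided by their own Cd8a, Cd8b1, Cd4 and Foxp3 UMIs. This gave 184 KO and 170 WT CD8 T cells, 145 and 118 Foxp3-negative CD4 T cells, 31 and 58 Foxp3-positive CD4 T cells (regulatory T cell-like), and 178 and 158 cDC1-like cells, the dendritic cells that cross-present antigen, called cDC1s here. Genes used to gate or name the classes describe them and check nothing: Cd8a was at 772 CPM (UMIs of a gene per 1000000 UMIs of the class) in KO and 726 in WT CD8 T cells, and Xcr1 was at 190 and 171 CPM in cDC1s. Foxp3, also a gate, was at 441 and 420 CPM in Foxp3-positive CD4 T cells, where 1 KO cell also held 100 UMIs of the monocyte gene Chil3. Tcf7 itself (chromosome 11, 52252371 to 52283014, mm10) was at 53.5 CPM in KO and 154 CPM in WT CD8 T cells, a ratio of 0.347 (0.271 to 0.441). It was also lower in KO Foxp3-negative CD4 T cells (106 against 232 CPM, ratio 0.458, 0.349 to 0.599). The deleted exons are not given, and tags outside them check nothing.

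In CD8 T cells the mitosis genes together were higher in the KO library: 8452 UMIs or 4187 CPM in KO, against 3447 UMIs or 2785 CPM in WT, a ratio of 1.504 (1.45 to 1.56). Of 28 genes with a mean of at least 20 CPM in the libraries, called measured here, 16 were at least 1.5-fold higher in KO and 0 were that much lower, against 6.86% higher and 6.46% lower of all 5043 genes measured. The median log2 difference was 0.67 for these 28 genes and 0.05 for all genes. Over the 44 genes, 39 had a ratio above 1, and the interval lay above 1 for 21, with neither count made over all genes. These UMIs sat in few cells: 14 KO and 7 WT cells held at least 50% of them, so the spread between cells is wider than the intervals show.

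CDK1 and its partners start mitosis, and they were among the most unequal. Cdk1 (chromosome 10, 69335146 to 69352938) was at 78.3 CPM in KO and 41.2 CPM in WT CD8 T cells, with at least 1 UMI in 38 of 184 and 18 of 170 cells. The ratio was 1.90 (1.38 to 2.66). Cyclin B1, Ccnb1 (chromosome 13, 100778650 to 100786570), was at 39.1 CPM in KO and 17.8 CPM in WT, a ratio of 2.20 (1.36 to 3.71). Cyclin B2, Ccnb2 (chromosome 9, 70407692 to 70421547), was at 115 and 53.3 CPM, in 42 KO and 16 WT cells. Both B cyclins thus stood at more than 2-fold in KO, with Ccnb2 at 2.16 (1.63 to 2.88). Cyclin A2, Ccna2, which acts earlier as well, in S phase, was at 106 CPM in KO and 72.7 CPM in WT, a ratio of 1.45. The small CDK-binding proteins Cks1b (149 and 88.1 CPM) and Cks2 (117 and 59.8 CPM) had ratios of 1.69 and 1.96. Of the 6 genes with this role, 5 passed 1.5-fold, and their summed ratio was 1.81 (1.62 to 2.03).

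Of the 3 ubiquitin ligase partners, 2 passed 1.5-fold, both of them partners of the anaphase-promoting complex. Ube2c (chromosome 2, 164769898 to 164778822), the E2 enzyme that feeds the complex with ubiquitin, was at 202 CPM in KO and 99.4 CPM in WT, in 46 and 21 cells, with a ratio of 2.03 (1.65 to 2.50). Cdc20, its activator, was at 45.1 CPM in KO and 20.2 CPM in WT (ratio 2.23, 1.42 to 3.63). Cdca3, which helps remove the kinase WEE1, was at 70.4 and 47.7 CPM (1.48). Survivin, Birc5 (chromosome 11, 117849251 to 117855743), a subunit of the chromosomal passenger complex that guides Aurora B, was at 166 CPM in KO and 84.8 CPM in WT, in 48 and 16 cells, with a ratio of 1.96 (1.57 to 2.47). Its partner in the complex, Cdca8 (borealin), was at 88.7 and 54.9 CPM (1.61), and Aurkb, the kinase itself, was at 52.5 and 37.2 CPM (1.41, 0.991 to 2.04). Polo-like kinase, Plk1, was at 38.1 CPM in KO and 21.8 CPM in WT (1.75), while the other 5 kinases of the set (Aurka, Nek2, Bub1, Bub1b and Ttk) were under 20 mean CPM.

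Structural genes were less uniform. Cenpa, the histone variant that marks centromeres, was at 258 CPM in KO and 144 CPM in WT (1.79, 1.51 to 2.14). The kinetochore proteins Cenpe (35.7 and 31.5 CPM) and Cenpf (50.5 and 42 CPM) differed by 1.13 and 1.20. For Cenpf this rested on 1 WT cell that held 46.2% of its WT UMIs. Without the richest cell of each library its ratio was 1.91 (1.23 to 3.03), and that of Cenpe was 1.14 (0.724 to 1.83). Ki-67, Mki67 (chromosome 7, 135689784 to 135716361), which coats mitotic chromosomes, was at 105 CPM in KO and 65.4 CPM in WT, in 52 and 20 cells (1.60, 1.23 to 2.09). Tubulin Tubb4b was at 330 and 207 CPM (1.60), and the spindle factors Tpx2 (58.0 and 31.5 CPM) and Tacc3 (54.0 and 33.9 CPM) had ratios of 1.84 and 1.59. These genes followed the cyclins, but others did not. Topoisomerase Top2a (chromosome 11, 98992943 to 99024189), which untangles sister chromatids, was at 172 CPM in KO and 158 CPM in WT, a ratio of 1.09 (0.916 to 1.31). Condensin subunit Smc4 was at 204 and 202 CPM (1.01, 0.862 to 1.19), and the spindle motor Kif11 at 29.2 and 30.7 CPM (0.952, 0.623 to 1.47). Hmgb2, a chromatin protein and the most abundant gene of the set, was at 1255 CPM in KO and 870 CPM in WT (1.44). The 5 kinesins together had a ratio of 1.09 (0.853 to 1.40), below the 1.81 of the cyclin group. Anln and Ect2, which act in cytokinesis, were both under 20 mean CPM in CD8 T cells.

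**Figure D1:**
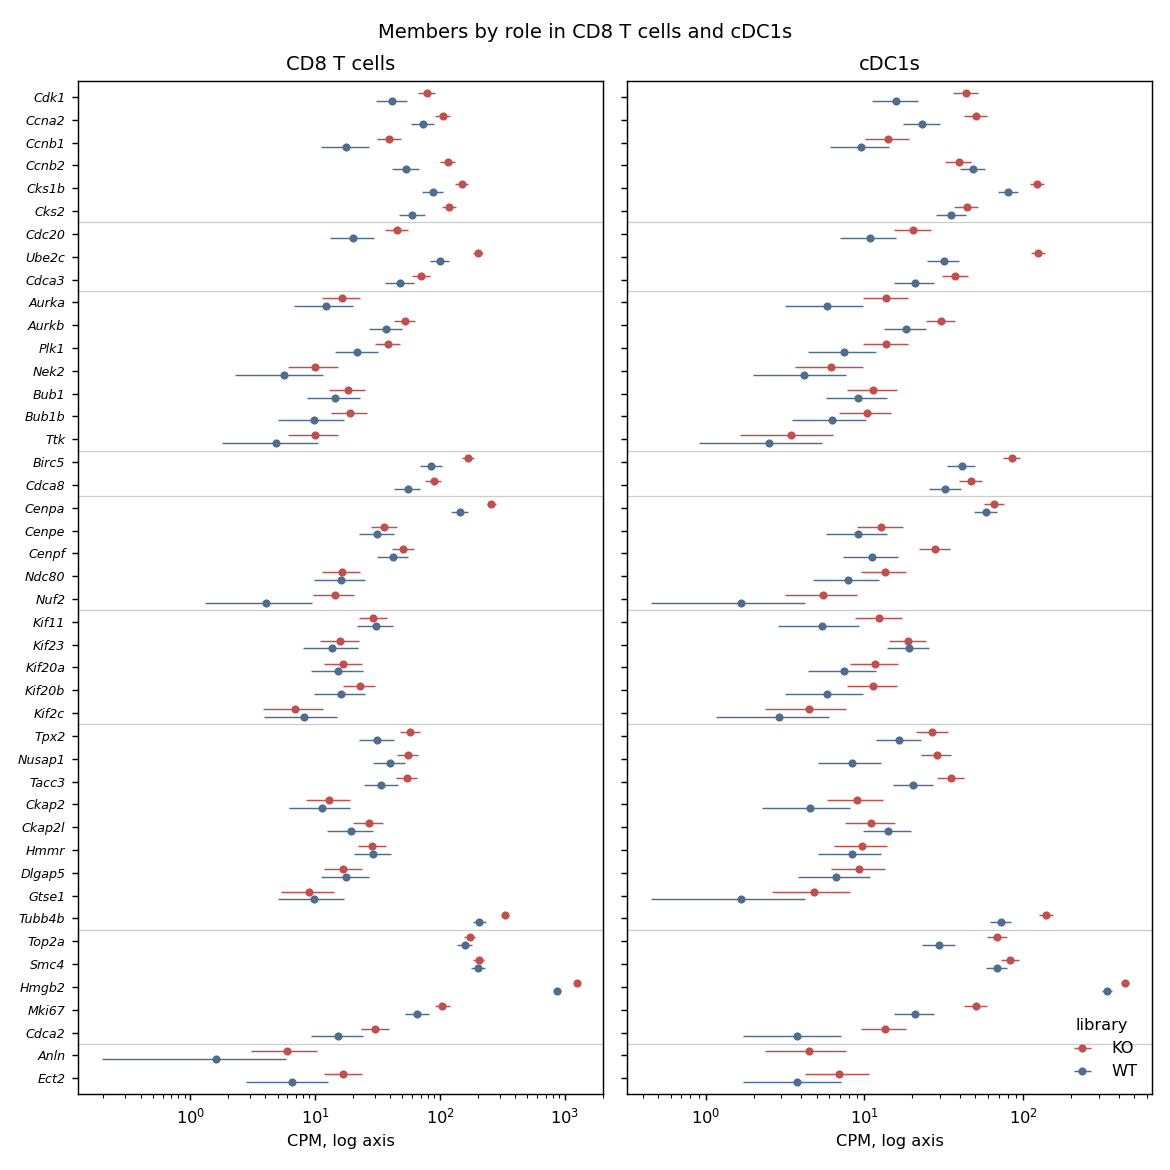
Level of each gene in CPM (log axis) in CD8 T cells (left panel) and cDC1s (right panel), with exact Poisson 95% intervals; red points are the KO library and blue points the WT library, and grey lines divide the roles. In CD8 T cells Ube2c stands at 202 CPM in KO against 99.4 in WT, while the Smc4 points coincide at 204 and 202; Anln has no WT point in cDC1s because its WT count was 0.

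To count dividing cells at equal depth, each cell with at least 2000 UMIs was thinned to 2000, and a cell was called G2/M when at least 4 of the 44 genes kept a UMI and its phase score was highest for G2/M. Of KO CD8 T cells, 24 of 177 were called (13.6%, 8.88 to 19.5), against 10 of 160 WT CD8 T cells (6.25%, 3.04 to 11.2). The difference was 7.31 percentage points (0.506 to 14.1). Its interval included 0 in 5 of the 16 alternative settings that gave one: another random draw, at least 3 genes, phase alone, and thinning to 1500 or to 4000 UMIs. Over 10 draws of the thinning the mean shares were 13.0% in KO and 4.63% in WT, with differences of 5.67 to 11.6 points. Without thinning, phase and count rules gave 10.3% in KO and 4.12% in WT. Cells with no UMI of any of these genes made up 23.2% of thinned KO and 28.1% of thinned WT CD8 T cells, and 12 KO and 4 WT cells held 12 or more of the genes. Near the threshold, 13 KO and 9 WT cells held exactly 3 genes and 7 KO and 5 WT cells held exactly 4. G2/M cells were also richer in RNA: before thinning they had a median of 19589 UMIs in KO and 14000.5 in WT, against 5893 and 4816 in other CD8 T cells. Monocytes, a class with no called cell (0 of 78 in KO and 0 of 21 in WT), still held 295 CPM of these genes in KO and 339 in WT. Of this, Hmgb2, Smc4, Tubb4b, Cks1b and Cks2 together made 87.5% and 85.5%. Whether these UMIs came from the cells or from free RNA was not tested.

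**Figure D2:**
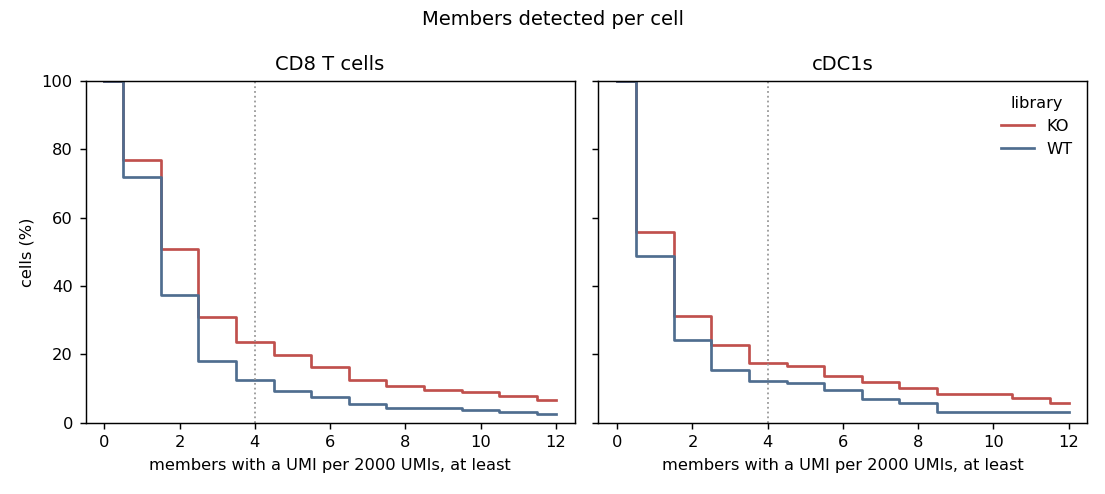
Share of cells (%) with at least the given number of the 44 genes detected after thinning to 2000 UMIs, for CD8 T cells (left) and cDC1s (right); the red line is KO, the blue line WT, the last step is 12 or more, and the dotted line marks the threshold of 4 genes. In CD8 T cells 42 KO and 20 WT cells reached 4 genes, and in cDC1s 31 KO and 19 WT cells did.

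The genes that defined the call describe these cells and are no finding. Among the called CD8 T cells, Hmgb2 had a UMI in 24 of 24 in KO and 9 of 10 in WT, and Cenpa in 18 of 24 and 8 of 10. Genes that played no part in the call were then read in the same thinned cells. The 71 other mitosis genes summed to 7417 CPM in KO G2/M cells and 2199 CPM in other KO CD8 T cells, a ratio of 3.37 (2.96 to 3.84), and in WT the ratio was 4.38 (3.68 to 5.20). Stmn1, which breaks down microtubules, was at 1042 and 127 CPM in KO G2/M and other cells (8.17, 5.27 to 12.8), and at 550.0 and 107 CPM in WT. The 22 T cell state genes summed lower in G2/M cells, at 7250 against 13101 CPM in other cells in KO (0.553, 0.495 to 0.618). In WT the sums were 7200 and 13783 CPM (0.522, 0.439 to 0.617). Single genes went both ways: 7 intervals lay below 1 and 1 above in KO, and 2 below and 3 above in WT. The T cell chemokine Ccl5 was lower, at 1833 CPM in KO G2/M cells and 6951 CPM in other KO cells (0.264, 0.211 to 0.326). In WT it was at 3000.0 and 10040.0 CPM (0.299). Ccl5 thus made most of the summed state genes in the other cells of both libraries. The sum without it was not computed, so the lower sums do not describe the list as a whole. Il7r, the interleukin-7 receptor of resting and memory T cells, had 1 UMI in KO G2/M cells against 126 in other KO cells, and 0 UMIs against 150 in WT. Tcf7 had 1 UMI in KO G2/M cells against 41 in other KO cells (0.155, 0.004 to 0.916), and 3 against 77 in WT (0.584, 0.118 to 1.77). Granzyme B, Gzmb, was lower in KO G2/M than in other KO cells (813 and 1330 CPM, 0.611, 0.428 to 0.850), while in WT the ratio was 1.56 (0.828 to 2.70).

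The CD8 T cells of the libraries were not made of the same clusters. Cluster 3, led by Nrgn, Prf1 (perforin) and Ifng, held 84 of 184 KO and 38 of 170 WT CD8 T cells, while cluster 7, led by Gzmk, held 31 KO and 66 WT cells. Most of the dividing cells lay in cluster 3, with 21 of 83 called in KO (25.3%) and 7 of 38 in WT (18.4%). Within cluster 3 the summed genes were at 5056 CPM in KO and 3820 CPM in WT, a ratio of 1.32 (1.27 to 1.39). Within cluster 7 they were at 2053 CPM in KO and 2574 CPM in WT, a ratio of 0.798 (0.695 to 0.913), with 3 of 30 cells called in KO (10.0%) and 2 of 62 in WT (3.23%). Cluster 11, led by Dapl1, had 0 called cells in both libraries and 481 and 599 CPM. When the KO clusters were given the weights they have in WT, the class ratio came to 1.18, against 1.504 for the cells as sampled.

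**Figure D3:**
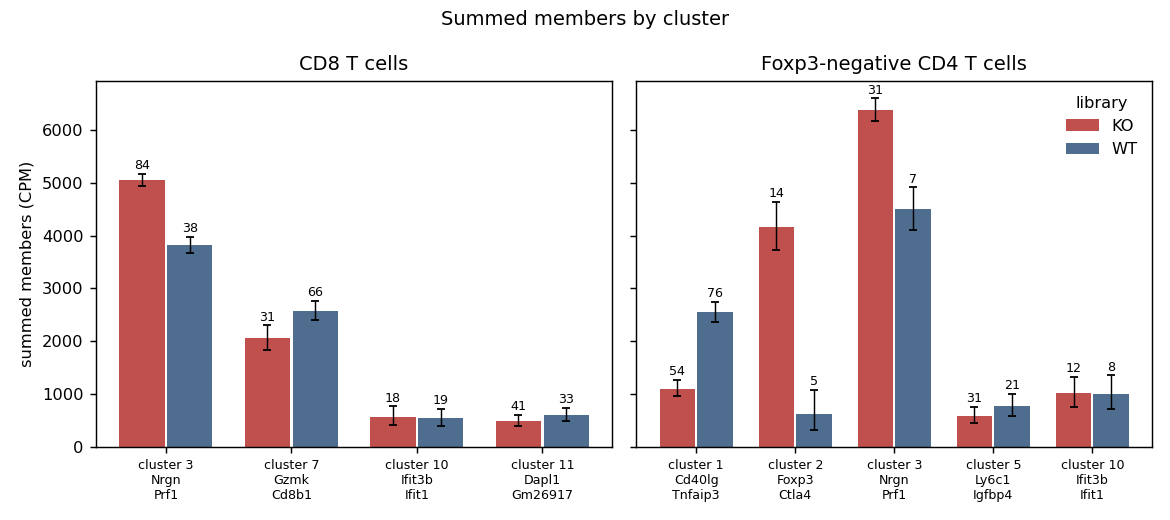
Summed CPM of the 44 genes in each cluster of CD8 T cells (left) and Foxp3-negative CD4 T cells (right) with at least 5 cells in both libraries; red bars are KO, blue bars WT, error bars are exact Poisson 95% intervals and the numbers over the bars count cells. In cluster 3 of CD8 T cells KO stands at 5056 CPM and WT at 3820, and in cluster 7 at 2053 and 2574.

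In Foxp3-negative CD4 T cells, KO again stood higher as sampled, with 4226 CPM in KO (4176 UMIs) and 2536 CPM in WT (1322 UMIs), a ratio of 1.67 (1.57 to 1.77). Of 29 measured genes, 25 were at least 1.5-fold higher in KO and 0 lower, against 12.7% higher and 12.6% lower of 5364 genes. That direction was not kept under every rule for the class. Cells with Foxp3 or with at least 2 regulatory T cell markers left the class in one alternative, and the ratio became 0.865, with 0 genes past 1.5-fold higher and 1 lower of only 6 measured. With the KO clusters weighted as in WT it was 0.887, and as a mean over the CPM of single cells it was 1.27 with 5 genes past 1.5-fold. The share of all genes is not given beside the counts of these alternatives. The dividing cells of this class lay in few clusters: cluster 3 held 31 KO and 7 WT cells and 6387 and 4500 CPM, while cluster 1, led by Cd40lg, held 54 KO and 76 WT cells and 1097 and 2554 CPM (ratio 0.430, 0.365 to 0.503). At least 50% of the UMIs lay in 4 KO and 2 WT cells, and 1 WT cell held 30.6% of the WT total. Without the richest cell of each library the ratio was 1.97.

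Genes with the highest lower interval bound in this class included a kinase and cyclins. Aurora kinase A, Aurka, had 48 UMIs in KO and 4 in WT, 48.6 and 7.67 CPM, a ratio of 6.33 (2.32 to 24.2). Top2a was at 177 CPM in KO and 71.0 CPM in WT (2.49, 1.74 to 3.66), unlike in CD8 T cells. Ccnb2 (106 and 38.4 CPM, 2.77) and Ccna2 (122 and 48.0 CPM, 2.55) came next, then the checkpoint kinase Bub1 (39 and 5 UMIs, 4.11, 1.62 to 13.4). The lowest upper interval bounds were those of Smc4 (192 and 203 CPM, 0.945), Hmgb2 (1130 and 909 CPM, 1.24) and Tubb4b (340 and 215 CPM, 1.58). Bub1b and Ttk, both checkpoint kinases, had 16 and 8 UMIs in KO and 0 in WT. Bub1b was at least 2.81-fold higher against 3 counts in the WT class, with an exact lower bound of 2.03. For Ttk the exact lower bound was 0.900, so its interval includes 1. G2/M calls were 10 of 135 in KO (7.41%) and 3 of 104 in WT (2.88%), a difference of 4.52 points (-2.01 to 10.8), and 5.52% and 1.69% without thinning. Over 10 draws the mean shares were 6.52% in KO and 2.12% in WT. The depth does not separate these shares.

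Foxp3-positive CD4 T cells were few, and 2 KO and 3 WT cells held at least 50% of their UMIs. Their sum was 4805 CPM in KO and 3649 CPM in WT, a ratio of 1.32 (1.22 to 1.42), and 12 of 35 measured genes were at least 1.5-fold higher and 1 lower, against 12.7% higher and 14.1% lower of 5371 genes. With the co-receptor and Foxp3 gates set after thinning, the ratio was 0.885, with 2 genes past 1.5-fold higher and 3 lower of only 7 measured. With Foxp3 or 2 regulatory markers it was 1.49, with 23 higher and 0 lower of 35 measured. The share of all genes is not given for these 2 settings, so their counts show no excess over it. Tubb4b was at 423 CPM in KO and 215 CPM in WT (1.96, 1.49 to 2.59), and Cdk1 was at 96.7 and 44.8 CPM (2.16, 1.18 to 4.02). Ube2c (244 and 160 CPM, 1.52), Cks1b (122 and 68.2 CPM, 1.79) and Smc4 (312 and 215 CPM, 1.45) followed. Hmgb2 (1154 and 981 CPM, 1.18), Birc5 (125 and 141 CPM, 0.891) and Cenpa (269 and 262 CPM, 1.02) had the lowest upper interval bounds, and Bub1, with 6 UMIs in KO and 18 in WT, was the 1 gene past 1.5-fold lower (0.560, 0.182 to 1.47). G2/M cells were 5 of 31 in KO (16.1%) and 6 of 56 in WT (10.7%), a difference of 5.41 points (-10.0 to 24.2). Over 10 draws the mean shares were 12.6% in KO and 9.64% in WT, with differences of -1.04 to 5.76 points and KO higher in 8 of 10. Unthinned, the shares were 9.68% and 8.62%.

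**Figure D4:**
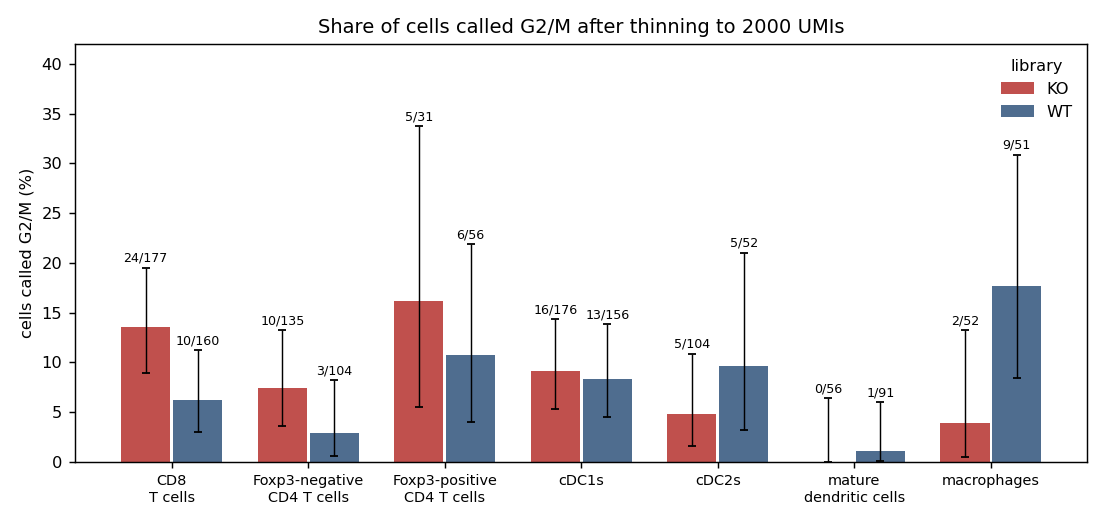
Share of cells called G2/M (%) after thinning to 2000 UMIs in each class, with exact Clopper-Pearson 95% intervals; red bars are KO and blue bars WT, and the fractions over them are called cells over cells counted. CD8 T cells stand at 13.6% in KO and 6.25% in WT, cDC1s at 9.09% and 8.33%, and macrophages at 3.85% and 17.6%.

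In cDC1s the summed genes were at 1836 CPM in KO (5344 UMIs) and 1148 CPM in WT (2770 UMIs), a ratio of 1.60 (1.53 to 1.68). Of 18 measured genes, 12 were at least 1.5-fold higher in KO and 0 lower, against 3.03% higher and 2.66% lower of 4592 genes. The share called G2/M was 16 of 176 in KO (9.09%) and 13 of 156 in WT (8.33%), a difference of 0.758 points (-5.93 to 7.25), which was the lowest of 10 draws of the thinning. The mean shares over those draws were 9.72% in KO and 7.24% in WT, a difference of 2.47 points, with KO higher in 10 of 10 draws (0.758 to 3.74). Unthinned it was 8.99% and 5.06%. G2/M cDC1s of KO held 21.8 UMIs of these genes per 2000 and those of WT 15.5, against 1.49 and 0.916 in the other cDC1s. Since these genes made the call, the gap between called and other cells is no finding. When cell cycle genes were kept for clustering, 33 KO and 20 WT cDC1s left the class, and 31 and 19 of them became unnamed. Those that left included 15 of 16 KO and 11 of 13 WT G2/M cells. The ratio of the remaining cDC1s was then 1.05, with 0 genes past 1.5-fold. In the clustering used here, cluster 14 (14 KO and 35 WT cells) scored best as cDC1s but also held T cell markers. It therefore stayed unnamed and outside this class. The unnamed cells, those of clusters 14 and 20, were at 1408.5 CPM in KO and 2453 CPM in WT. Their ratio was 0.574 (0.521 to 0.631), and 3 of 25 KO and 7 of 39 WT cells were called G2/M. These levels lie below those of the cDC1s in KO and above them in WT. Adding all unnamed cells to the class would therefore lower the cDC1 ratio, and by how much was not computed.

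Ube2c led the cDC1s, at 124 CPM in KO and 31.5 CPM in WT, in 30 of 178 and 22 of 158 cells, a ratio of 3.94 (3.07 to 5.11). Of its 361 KO UMIs, 97 came from a single cell, and leaving out the richest cell of both libraries gave 3.38 (2.57 to 4.50). Cdk1 was at 43.6 CPM in KO and 15.7 CPM in WT (2.77, 1.92 to 4.09), in 38 and 17 cells. Top2a, nearly level in CD8 T cells, was at 68.4 CPM in KO and 29.4 CPM in WT cDC1s (2.32, 1.76 to 3.09). Mki67 was at 50.5 and 20.7 CPM (2.44, 1.76 to 3.43), and Birc5 at 84.9 and 41.0 CPM (2.07, 1.63 to 2.64). Ccna2 also stood more than 2-fold higher, at 50.2 CPM in KO and 23.2 CPM in WT. Ccnb2, more than 2-fold higher in KO CD8 T cells, was at 39.2 CPM in KO and 48.1 CPM in WT here (0.815, 0.624 to 1.06). Ccnb1 was under 20 mean CPM, at 14.1 and 9.53 CPM (1.48, 0.866 to 2.58), and so could not count as past 1.5-fold. Without the richest cell of each library its ratio was 1.94 (1.03 to 3.82), so no contrast with CD8 T cells is drawn for it. Cenpa was at 65.6 and 58.4 CPM (1.12) and Hmgb2 at 437 and 339 CPM (1.29). Anln, which builds the contractile ring, had 13 UMIs in KO and 0 in WT, at least 3.59-fold higher against 3 counts in the WT class, with an exact lower bound of 2.53 (1.64 without the richest cell of each library).

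Across roles, the ubiquitin ligase partners had the highest ratio in cDC1s (2.89, 2.40 to 3.48), after cytokinesis with its few UMIs, while cyclins, CDK1 and Cks partners were at 1.48 there and 1.81 in CD8 T cells. Kinesins were at 1.09 in CD8 T cells, 1.99 in Foxp3-negative CD4 T cells, 1.38 in Foxp3-positive CD4 T cells and 1.45 in cDC1s. Passenger proteins were at 1.83, 1.70, 1.01 and 1.79 in the same order of classes. Whether a role differed between classes was not tested. Over the 4 classes, 27 of 44 genes had a ratio above 1 in all, and Cdk1, Cks1b, Ube2c and Tubb4b were past 1.5-fold in all 4. Birc5, Tpx2, Tacc3 and Mki67 joined them when the Foxp3-positive cells were left aside. How many of all genes met these rules was not counted, so no excess is read from them. In Foxp3-positive cells Cdk1 had a UMI in 6 KO and 6 WT cells, Cks1b in 6 and 8, and Ube2c in 7 and 10.

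**Figure D5:**
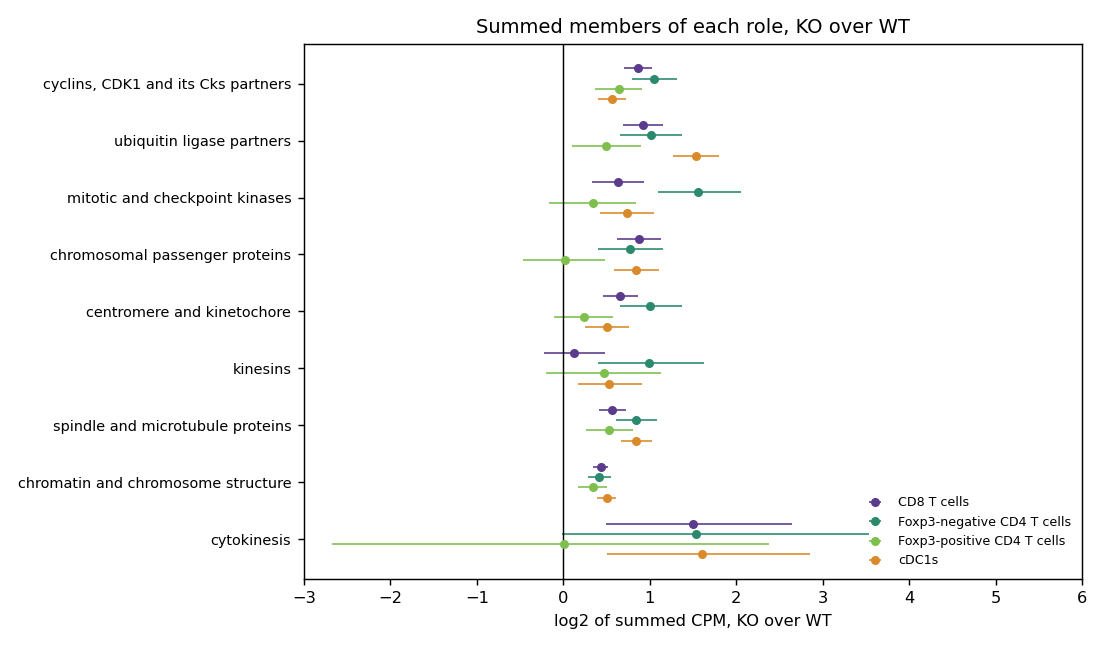
Log2 of the summed CPM of each role, KO over WT, in the 4 main classes, with exact 95% counting intervals; points right of the line at 0 are higher in KO. Cytokinesis has the widest intervals, and the kinesins of CD8 T cells lie close to 0 at 0.13.

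Of the other myeloid classes, cDC2-like cells ran lower in KO, and the ratio intervals of mature dendritic cell-like and macrophage-like cells included 1. In cDC2-like cells the summed genes were at 1138 CPM in KO and 1540 CPM in WT, a ratio of 0.739 (0.688 to 0.793). Of 16 measured genes, 0 were past 1.5-fold higher and 1, Ube2c, was lower, against 6.12% and 6.59% of 4887 genes. G2/M cells were 5 of 104 in KO (4.81%) and 5 of 52 in WT (9.62%). These 5 WT cells held 71.4% of the WT UMIs of the set, and the 5 KO cells 33.2% of those of KO. The cDC2-like cells that were not called went the other way, with 1.29 UMIs of the set per 2000 in KO and 0.830 in WT. Mature dendritic cell-like cells held 272 CPM in KO and 326 CPM in WT (0.835, 0.677 to 1.03) and had 0 of 56 and 1 of 91 G2/M cells, where 0 of 56 allows a share of up to 5.36% at 3 counts (6.38% by the Clopper-Pearson bound). Of their 3 measured genes 1, Hmgb2, was past 1.5-fold lower, and 0 were higher, against 8.69% lower and 7.76% higher of genes. In macrophage-like cells the sum was 1012 CPM in KO and 908 CPM in WT (1.11, 0.994 to 1.25), with Ccnb2, Cks1b, Cks2 and Hmgb2 past 1.5-fold higher and Smc4 lower among 14 measured genes, against 8.76% higher and 11.9% lower of 5068. Their G2/M share went the other way, at 2 of 52 in KO (3.85%, 0.469 to 13.2) and 9 of 51 in WT (17.6%, 8.40 to 30.9). The 9 WT cells had a median of 2987 UMIs, against 13608 in other WT macrophage-like cells, while the G2/M cells of the 4 main classes were deeper than the others. C1q genes, markers of macrophages, had a UMI in 2 of 2 KO and 8 of 9 WT G2/M cells. Cd3 genes, markers of T cells, had one in 2 of 2 KO and 3 of 9 WT G2/M cells, and in 8 of 50 KO and 15 of 42 WT other cells, and their part in the result was not tested.

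T cells with neither co-receptor detected, 133 in KO and 116 in WT, stood outside the gated classes. Their summed genes were at 2709 CPM in KO and 1445 CPM in WT, a ratio of 1.87 (1.70 to 2.07), and 15 of 19 measured genes were past 1.5-fold higher and 0 lower, against 9.91% higher and 17% lower of 5347 genes. G2/M cells were 5 of 106 in KO and 1 of 94 in WT. Tcf7 was at 186 CPM in KO and 171 CPM in WT there.

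The rest of the cell cycle was read from lists of other genes. Of 71 other mitosis genes, 36 were measured in CD8 T cells, and 9 were past 1.5-fold higher and 0 lower, beside 6.86% higher and 6.46% lower of all genes. Among them, Stmn1 was at 489 CPM in KO and 320 CPM in WT (1.53), and the kinetochore genes Spc24 (84.2 and 46.9 CPM) and Cenpm (37.2 and 17 CPM) had ratios of 1.80 and 2.19. H2afx, a histone variant of DNA damage and condensed chromatin, was at 177 and 116 CPM (1.54). Of 43 S phase genes, 34 were measured, with 6 higher and 1 lower: the helicase Hells was at 142 CPM in KO and 84.8 CPM in WT (1.68), and Pcna, the sliding clamp of DNA polymerase, at 148 and 96.9 CPM (1.53). Their summed ratio of 1.19 (1.14 to 1.25) was below that of the mitosis genes. Genes that hold cells in rest or block the cycle ran lower, with 6 of 13 measured past 1.5-fold lower and 2 higher. Klf2, a factor of quiescent T cells, was at 139 CPM in KO and 322 CPM in WT (0.433, 0.370 to 0.506), the antiproliferative Btg2 at 73.8 and 155 CPM (0.476), and Tob1 at 10.4 and 32.3 CPM (0.322). Cdkn1a, which encodes the CDK inhibitor p21, stood on the other side, at 60.9 CPM in KO and 19.4 CPM in WT (3.14, 2.02 to 5.09).

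In Foxp3-negative CD4 T cells, 16 of 31 measured other mitosis genes were past 1.5-fold higher and 1 lower, and 12 of 30 S phase genes were higher and 1 lower, beside 12.7% and 12.6% of all genes. The higher ones included Hells (114 CPM in KO and 19.2 CPM in WT, 5.96). In Foxp3-positive CD4 T cells the S phase genes did not go with the mitosis genes, with 1 of 27 past 1.5-fold higher, 11 lower and a summed ratio of 0.825 (0.740 to 0.918), and 7 higher and 2 lower of 34 other mitosis genes, beside 12.7% higher and 14.1% lower of all genes. In cDC1s, 5 of 17 other mitosis genes and 10 of 22 S phase genes were higher and 0 lower, beside 3.03% and 2.66% of all genes. The higher ones included the licensing factor Mcm2 (40.2 CPM in KO and 19.1 CPM in WT, 2.11) and the ribonucleotide reductase subunit Rrm2 (74.2 and 41.9 CPM, 1.77). Ccnd2, a G1 cyclin, was at 155 CPM in KO and 72.1 CPM in WT cDC1s (2.15, 1.80 to 2.57), and Cdkn1a was at 84.5 and 51.8 CPM (1.63). Xcr1, used to name the class, was at 219 CPM in KO G2/M and 203 CPM in other KO cDC1s (1.08, 0.417 to 2.35), an interval that allows more than a 2-fold difference either way, and at 154 and 140 CPM in WT. The other mitosis genes were 4.53-fold (3.91 to 5.23) higher in KO G2/M cDC1s than in other KO cDC1s, and 3.89-fold (3.22 to 4.67) in WT.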

How the data were processed

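Single-cell UMI counts of the KO and WT libraries were deposited as filtered 10x matrices. Per the submitters' processing notes they came from Cell Ranger 1.3 on mm10, whereas the matrix headers give 3.0.2. The deposited counts were used as whole-number UMIs with no normalization. The kept cells had 500 or more UMIs, 300 or more genes and mitochondrial UMIs of 10% or less, and Scrublet calls (3 KO and 5 WT cells) were removed. The totals were 11758449 UMIs in KO and 9283014 in WT. The libraries shared 1 cell barcode. Clustering used scanpy 1.11.5 and leidenalg 0.10.2 at resolution 1.5, with 2000 variable genes, 30 components and no gene of the mitosis and S phase lists. That resolution was chosen after cluster markers were seen, since resolution 1 did not separate plasmacytoid dendritic cells. Of 21 clusters, 2 stayed unnamed. Trac, Trbc2 and Iglc2 were not used here.

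CPM are UMIs of a gene per 1000000 UMIs of the class. Levels have exact Poisson intervals, ratios exact conditional binomial ones and shares Clopper-Pearson ones; a share difference joins the bounds of its shares. No interval covers the spread between animals or cells. Measured means a mean of at least 20 CPM over KO and WT. Named genes are 7 fixed ones, the 5 with the highest lower and the 3 with the lowest upper ratio bound among those measured per main class, the most abundant of each role, and the 4 most unequal of each related list. The genes, lists and rule were chosen with earlier results of these data known. Alternatives covered depth, gates, clustering, filters and thresholds. Positions are from the GENCODE annotation of GRCm38.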

Additional observations from a re-analysis of the deposited data

Results flagged for a closer look

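The results of 2 myeloid classes stood out against the CD8 T cells, and neither difference between classes was tested. In cDC2-like cells the summed mitosis genes were lower in KO, with a KO over WT ratio of 0.739 (0.688 to 0.793) whose interval lay below 1, while that of CD8 T cells lay above 1 at 1.504. The 5 called WT cells held 71.4% of the WT UMIs of cDC2-like cells. No alternative setting was run for either myeloid class. In macrophage-like cells the share called G2/M was 3.85% in KO and 17.6% in WT, a difference of -13.8 percentage points (-27.5 to -0.639) whose interval lay below 0, while that of CD8 T cells was 7.31, with an interval above 0 in the setting reported and including 0 in 5 of 16 alternative settings. The summed genes of macrophage-like cells did not follow that share, with a ratio of 1.11. With 1 library per group, a search for a library far from its group could not be made.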

How the results depend on the processing

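Of 176 values over 12 results, 140 lay within the counting interval of the reported value or, for counts, within 1.5 times it, 33 moved further and 3 sums changed direction; sums are given here as log2 of KO over WT. Direction changed for Foxp3-negative CD4 T cells, which had 0.74 as reported, to -0.17 with the KO clusters weighed as in WT and -0.21 with Foxp3 or 2 regulatory T cell markers, and for Foxp3-positive CD4 T cells, which had 0.40 as reported, to -0.18 with gates after thinning. Sums moved in CD8 T cells to 0.24 with the clusters weighed as in WT, 0.69 with gates after thinning, 0.65 without 5 broadly used genes and 0.67 without the richest cell. In Foxp3-negative CD4 T cells they moved to 0.40 with gates after thinning, 0.34 as a mean over cells, 1.12 without the broad genes and 0.98 without the richest cell. In Foxp3-positive CD4 T cells they moved to 0.58 with the 2-marker rule, 0.54 with Scrublet calls kept, 0.54 with at least 1000 UMIs, 0.25 with cycle genes kept, 0.50 by the co-receptor with most UMIs and 0.60 by the markers of each cell alone. In cDC1s they moved to 0.50 at resolution 1, 0.58 with at least 1000 UMIs, 0.077 with cycle genes kept and 0.87 without the broad genes. Counts of genes past 1.5-fold at a mean of 50 CPM were 10 in CD8, 15 in Foxp3-negative CD4 and 7 in Foxp3-positive CD4 T cells and 4 in cDC1s. Other counts that moved were, in Foxp3-negative CD4 T cells, 14 with gates after thinning, 0 with the 2-marker rule and 5 as a mean over cells. In Foxp3-positive CD4 T cells they were 2 with gates after thinning, 7 with an interval that leaves out 1, 23 with the 2-marker rule, and 19 with Scrublet calls kept, with 1000 UMIs or with no filter. In cDC1s they were 0 with cycle genes kept and 28 with no filter. The share of all genes past 1.5-fold also depends on the setting and is not given for these counts. They therefore show how far a count moved and no excess over all genes. The causes were not tested. Fewer genes are measured at 50 CPM and more with no filter, and cDC1s left their class with cycle genes kept. The G2/M difference stayed above 0 in 17 of 17 alternatives for CD8 T cells (5.12 to 11.2 points), 17 of 18 for Foxp3-negative CD4 T cells (-0.635 to 8.01), 16 of 18 for Foxp3-positive ones (-1.04 to 7.98) and 14 of 15 for cDC1s (-0.719 to 5.43). The values not above 0 were -0.635 with the 2-marker rule, -1.04 with another draw and 0 with gates after thinning, and -0.719 with cycle genes kept, all with intervals that include 0. Resolution 1, thinned gates, WT cluster weights and repeated thinning were chosen after seeing the data. No paired analysis was possible because each group has 1 library. The 31 KO Foxp3-positive cells and the few dividing cells of each class set the precision.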

Other observations

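T cells with both co-receptors, 20 in each library, held the highest sums of the T cells, 5739 CPM in KO and 4850 CPM in WT, with 4 of 20 called in each. Melanoma-like cells, 13 in KO and 20 in WT, were at 2676 CPM in KO and 1049 CPM in WT, and too few passed 2000 UMIs for a share.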
